A study of Arabidopsis thaliana with 6 samples.

Results

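Cytochrome P450 enzymes were followed in rosette leaves of wild-type Arabidopsis thaliana exposed to nitric oxide (NO). The set was chosen by gene symbol: CYP, then 2 or 3 digits, a letter and a number, as assigned through the transcript that each array probe names. Of 225 such symbols in the RefSeq gene table, 14 were left out (all CYP79 and CYP83 genes, CYP81F2, CYP81F4, CYP94B1, CYP94B3 and CYP94C1), which left 211 genes in 38 families, among 38312 genes of the table. A matched probe was present for 203 of them, and 126 were bright enough to be tested, against 18614 tested genes in all. P450 genes that the table lists under another symbol, such as C4H, are not in the set and are described separately.

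Both groups were wild-type plants grown in the same kind of fumigation chamber and harvested at 4 weeks. The control group (3 arrays) received ambient air and the treated group (3 arrays) ambient air mixed with 3 ppm NO, around the clock from the end of cold stratification to harvest. The design text describes 3 independent experiments, and RNA came from whole rosette leaves. The number of plants behind each RNA sample and the NO content of the ambient air were not given in the sources used here.

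Cytochrome P450 enzymes are haem-thiolate proteins that bind molecular oxygen and insert 1 of its atoms into a substrate, with electrons passed on from a reductase. In plants most of them sit in the membrane of the endoplasmic reticulum and carry out oxidation steps in the synthesis and breakdown of hormones, sterols, cuticle and wall polymers, pigments and defence compounds. NO can bind to haem iron, the site at which these enzymes activate oxygen. Families are numbered by protein similarity, so genes of 1 subfamily are close relatives and often lie side by side in the genome.

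Values are log2 of the background-corrected spot signal minus the 75th percentile of the same array, so a value of 0 is a signal at that percentile. Each value belongs to 1 probe and was set only against the same probe on other arrays. Sums over marker lists are the exception, since they add the linear signals of different probes. Changes are NO minus ambient on this scale, ± the standard error of the limma fit (n = 3 arrays in each group), with p-values adjusted over all 18614 tested genes. A gene passed at an adjusted p under 0.05. The 75th percentile signal lay between 715 and 1321 on the 6 arrays, no gene spot was saturated, and between 65.2% and 66.8% of gene spots in the ambient group and between 68.5% and 72.0% in the NO group cleared the background mark of the scanner software ("well above background"). Each slide held arrays of 1 group, so slide and NO exposure cannot be told apart in any comparison here. Of 10 spike-in control probes, 7 were above background, and all 7 were brighter on every NO array than on every ambient array (median 39.4-fold); the part of this in the P450 changes was not tested.

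The 5 leaf identity genes, among them those of a small Rubisco subunit and of light-harvesting proteins, were well above background on all 6 arrays, with summed signals of 414 to 464 times the 75th percentile in ambient air and 744 to 1019.9 times that in NO. All 5 passed as higher. None of 5 seed genes was bright enough to be tested, with 3 of them not well above background on any array, and 4 of 8 root genes were also not above background on any array. The root list summed to between 1.56 and 1.67 in ambient air and 1.57 and 1.74 in NO, and 1 of its 3 tested genes passed as higher and 0 as lower. Of 7 tested flower and anther genes, 2 were higher and 1 lower (sums 0.680 to 0.806 against 0.784 to 0.861). The lower gene, AMS, entered the test only through the ambient group, where it is bright, and was above background on 1 NO array. Of 6 guard cell genes 1 was higher and 5 were lower (sums 11.2 to 11.6 against 14.1 to 15.5). The gene that was higher, GC1, is the brightest of the 6 and changed by 0.93 ± 0.06. Of 5 tested vascular genes 3 were higher and 2 lower (15.9 to 16.9 against 17.3 to 18.3). Of 4 tested shoot meristem genes 2 were higher and 0 lower (1.65 to 1.70 against 2.14 to 2.35), and of 3 tested trichome genes 1 was higher and 1 lower (1.32 to 1.36 against 1.40 to 1.46). The part of these marker shifts in the P450 changes was not tested.

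Of the 126 tested P450 genes, 76 passed, which is 60.3%, against 58.2% of all tested genes, so the share of P450 genes that passed was near that of the array as a whole. Their direction was divided differently: 47 genes (37.3%) were higher in NO, against 25.8% of all genes, and 29 (23.0%) were lower, against 32.4%. Of the 126 genes, 6 entered the test through 1 group only, since some array of the other group was not well above background: CYP96A8, CYP714A1, CYP709B1 and CYP71A24 through the NO group, CYP77A4 and CYP710A1 through the ambient group. A separate fit over only the genes above background on all 6 arrays, with its own adjustment of p-values, held 120 P450 genes. In that fit 48 were higher and 28 lower. The median log2 change was 0.12 over the P450 genes (quartiles -0.21 and 0.43) and -0.05 over all tested genes (quartiles -0.27 and 0.24), and the median size of a change, without its sign, was 0.33 against 0.26. The P450 median was lower under some other processing: 0.0662 with background corrected by the normexp method, 0.0758 with quantile scaling, 0.0759 with median scaling, and 0.0147 over all 203 genes with a probe. With the authors' deposited matrix it was 0.1367. The median over all tested genes moved as well. It was -0.0555 with normexp, -0.0704 with quantile scaling, -0.0970 with median scaling and -0.0362 with the authors' matrix. On the 3 NO arrays taken singly, the median P450 gene lay 0.10, 0.11 and 0.10 above its ambient mean. In bulk leaf RNA, a change in the number of cells that express a gene and a change in RNA per cell cannot be told apart.

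Most changes were modest. At least 1.5-fold was reached by 27 of the passing P450 genes (18 higher and 9 lower), or 21.4% of those tested against 18.8% of all genes (2145 higher and 1359 lower). At least 2-fold was reached by 8 genes (6 higher and 2 lower), or 6.35% against 6.98% (927 higher and 372 lower), which is again near the background. The 6 rises include CYP96A8 and CYP714A1, which entered the test only through the NO group, where they are bright. For CYP96A8 the bound given below is 1.80-fold, under the 2-fold mark. Past these folds rises thus outnumbered falls among all genes as well. The 2 groups of arrays did not overlap for 89 of the 126 genes (70.6%, against 66.7% of all genes). The remaining 50 genes did not pass, and their values are given only where a group of genes calls for them.

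**Figure D1:**
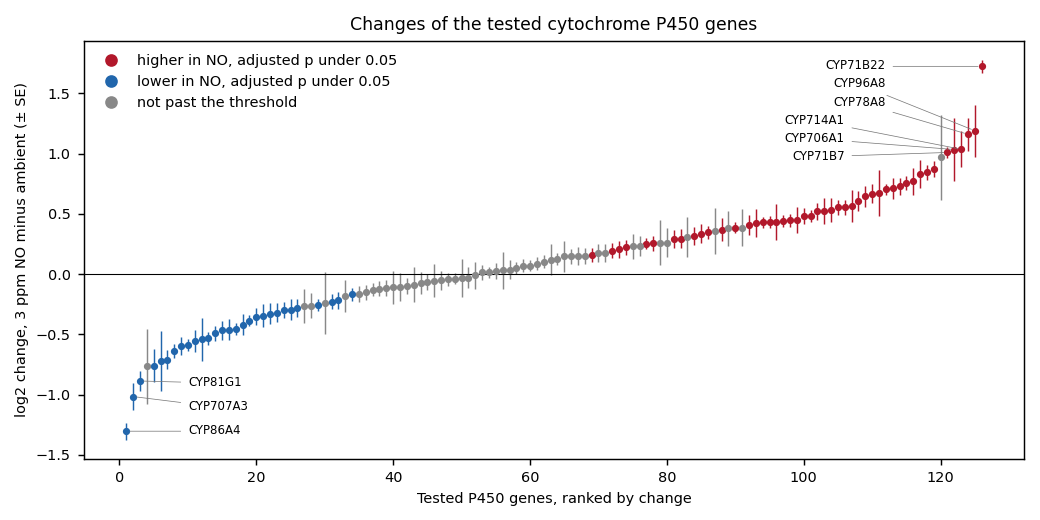
Log2 change (3 ppm NO minus ambient, ± SE, n = 3 arrays per group) of the 126 tested P450 genes, ordered from the largest fall to the largest rise. Red points (47) and blue points (29) passed as higher and lower; the curve crosses 0 left of its middle, since 74 changes were positive and 52 negative, and CYP71B22 stands alone at the upper end at 1.72.

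The plot of ranked changes shows that the tails hold few genes. CYP71B22 (AT3G26200), a member of the largest P450 subfamily on the array, had the largest rise. It read -3.53, -3.48 and -3.40 in ambient air and -1.76, -1.70 and -1.79 in NO. All 3 NO values thus lay more than 1.5 log2 units above the highest ambient value, and the gene rose 3.30-fold (log2 change 1.72 ± 0.05, adjusted p = 2.99e-06). With normexp the change was 1.04, and it passed under all 17 alternative settings.

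CYP71B7 (AT1G13110) of the same subfamily gave the smallest adjusted p among P450 genes after CYP71B22. Its values were 1.79, 1.75 and 1.73 in ambient air and 2.75, 2.74 and 2.81 in NO. The arrays within each group lay close together, and the gene rose 2.01-fold (log2 change 1.01 ± 0.05, adjusted p = 1.26e-05). CYP78A8 (AT1G01190), from a subfamily known for control of organ size, read -3.74, -3.50 and -3.18 against -2.29, -2.39 and -2.25. It rose 2.24-fold (1.16 ± 0.14, adjusted p = 0.000541), with a wider spread among the ambient arrays than among the NO arrays, and the change was 0.69 with normexp.

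CYP706A1 (AT4G22690) read 2.78, 3.75 and 3.78 in ambient air and 4.46, 4.45 and 4.52 in NO. The first ambient array was lower than the other two by almost 1 log2 unit, and the change of 1.03 ± 0.26 (adjusted p = 0.0132) became 0.71 without it. The other 2 tested probes of this gene rose by 0.41 and 0.53. CYP714A1 (AT5G24910), which encodes an enzyme that inactivates gibberellins, read -4.68, -4.61 and -5.16 against -3.89, -3.73 and -3.72. It was well above background on 2 of the 3 ambient arrays and on all NO arrays, so it was tested only because of the group in which it is bright, and its change of 1.04 ± 0.15 (adjusted p = 0.00119) is given as a description. With normexp the change was 0.31.

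CYP96A8 (AT1G47620) stayed under the background mark on every ambient array (-6.34, -5.41 and -5.76, mean -5.83) and was above it on all 3 NO arrays (-4.70, -4.66 and -4.56, mean -4.64). Against the dimmest signal that counted as above background, it was at least 1.80-fold higher in NO, a bound that was not itself tested. The fit used the ambient values under the background mark and gave a log2 change of 1.19 ± 0.22 (adjusted p = 0.00349). CYP96A8 was tested only because of the group in which it is bright, so the bound and this change are descriptions. The bound sets the mean of the NO arrays against, on each ambient array, the higher of that signal and the value of the probe itself. With normexp the change was 0.11, with an adjusted p of 0.526, the highest of its alternatives, which otherwise went down to 0.00124.

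**Figure D2:**
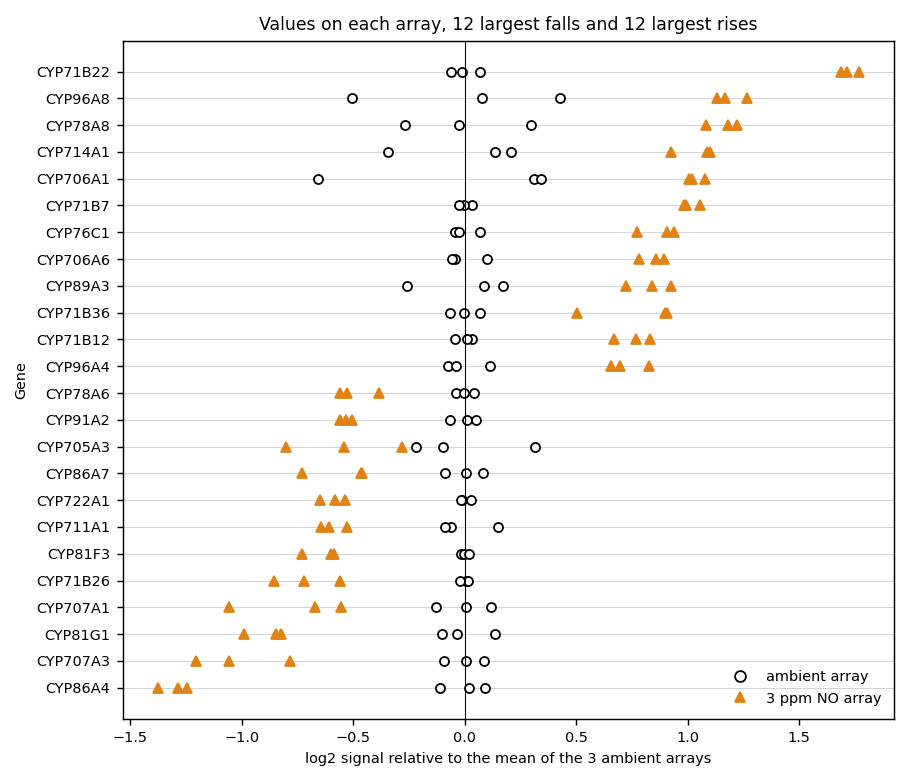
Log2 signal on each array relative to the mean of the 3 ambient arrays, for the 12 largest rises and 12 largest falls among P450 genes that passed and whose groups did not overlap; open circles are ambient arrays and triangles NO arrays. CYP706A1 and CYP96A8 show the widest spread among ambient arrays, while CYP71B22, CYP71B7 and CYP81F3 show tight ambient values.

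The plot of values on each array also holds the remaining large rises. CYP76C1 (AT2G45560), which oxidises the monoterpene alcohol linalool, read 0.89, 0.90 and 1.00 in ambient air and 1.87, 1.70 and 1.84 in NO and rose 1.83-fold (0.87 ± 0.06, adjusted p = 7.03e-05). CYP706A6 (AT4G12320) read -0.63, -0.48 and -0.64 against 0.27, 0.31 and 0.20 and rose 1.80-fold (0.84 ± 0.06, adjusted p = 7.6e-05). In both genes the gap between the groups was several times the range within either group. Smaller rises came from CYP71B36 (0.77 ± 0.12, or 0.51 with normexp), CYP71B12 (0.76 ± 0.06) and CYP96A4 (0.73 ± 0.07). CYP89A3 changed by 0.83 ± 0.12 (adjusted p = 0.00121), and with normexp it no longer passed (0.27, adjusted p = 0.066, against 0.000174 to 0.066 over its alternatives).

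The largest fall was that of CYP86A4 (AT1G01600), which encodes a fatty acid omega-hydroxylase that makes cutin monomers, best known from flowers. It read -1.76, -1.69 and -1.89 in ambient air and -3.15, -3.02 and -3.06 in NO. The groups were far apart, and the gene fell 2.47-fold (log2 change -1.30 ± 0.07, adjusted p = 1.92e-05) and passed under all 17 alternatives.

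CYP707A3 (AT5G45340), an abscisic acid 8'-hydroxylase, read -3.07, -2.89 and -2.97 against -4.03, -3.76 and -4.18. It fell 2.02-fold (-1.02 ± 0.11, adjusted p = 0.00039), and its other tested probe fell by 1.09 on the log2 scale. With normexp the change was -0.65. CYP81G1 (AT5G67310) read -2.05, -1.98 and -1.81 against -2.79, -2.94 and -2.77. It fell 1.85-fold (-0.89 ± 0.08, adjusted p = 0.000172), again with no overlap.

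CYP71B26 (AT3G26290) went against most of its subfamily. It read 1.72, 1.73 and 1.69 in ambient air and 0.86, 0.99 and 1.15 in NO, a fall of 1.64-fold (-0.71 ± 0.08, adjusted p = 0.000398). CYP81F3 (AT4G37400), which hydroxylates the ring of indole glucosinolates, read 0.40, 0.42 and 0.44 against -0.31, -0.18 and -0.17 and fell 1.55-fold (-0.64 ± 0.06, adjusted p = 0.000148). CYP722A1 fell by 0.59 ± 0.05, CYP91A2 by 0.53 ± 0.05 and CYP86A7 by 0.55 ± 0.09 on the log2 scale, the last of these at -0.33 with normexp. CYP705A3 had the weakest support of the 12 falls (-0.54 ± 0.18, adjusted p = 0.0351, and -0.32 with normexp): it kept its call under 7 of 17 alternatives (adjusted p 0.0029 to 0.149) and lost it without ambient array 1 or 2 or NO array 2 or 3, where the change lay between -0.59 and -0.38.

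Arranged by subfamily, CYP71B held the most tested genes and the most rises. For comparison with this and the later counts by subfamily, row, role and list, 25.8% of all tested genes were higher and 32.4% lower. Of its 26 tested genes 17 were higher, 3 lower and 6 did not pass, with a median log2 change of 0.42. CYP706A followed, with all 6 tested genes, CYP706A1 to CYP706A6, higher (median 0.51). Besides the A1 and A6 genes given above, CYP706A2 read 4.46, 4.37 and 4.53 against 5.00, 4.85 and 4.96 (0.48 ± 0.07, adjusted p = 0.00101). CYP706A3, whose enzyme oxidises floral sesquiterpenes and monoterpenes, read 1.05, 1.23 and 1.31 against 1.53, 1.46 and 1.48 (0.29 ± 0.07, adjusted p = 0.0146). The groups did not overlap in either gene. The median over the P450 genes as a whole was 0.12, and these subfamilies were picked out after their values were seen.

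**Figure D3:**
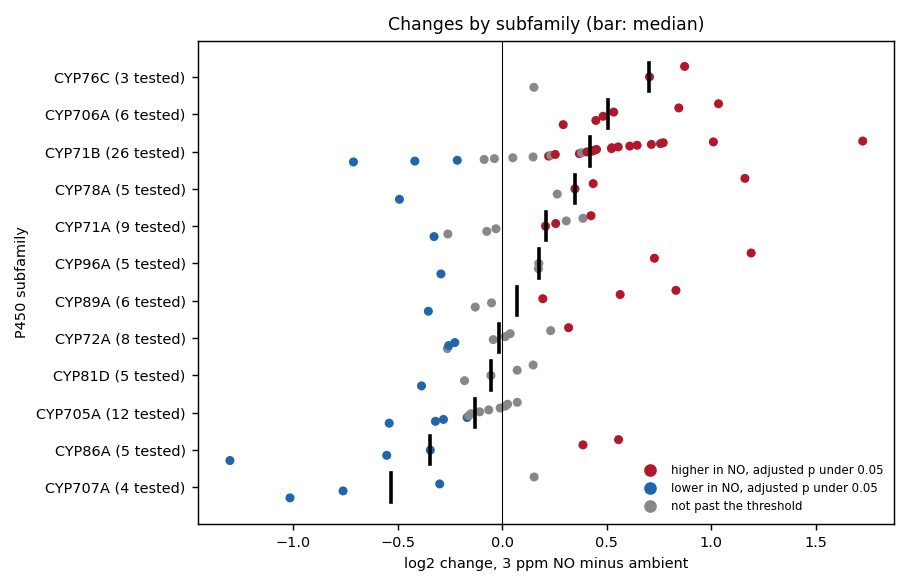
Log2 change of every tested gene in the 12 P450 subfamilies with at least 3 tested genes, ordered by their median (black bar); red and blue points passed as higher and lower, grey points did not pass. CYP706A has red points only, CYP71B spans -0.71 to 1.72 with 17 red points, and CYP705A, CYP81D and CYP707A have no red point; the CYP76C bar rests on the brighter of 2 opposed CYP76C2 probes.

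The plot by subfamily also holds subfamilies with fewer rises. CYP705A, a subfamily found in the mustard family and linked to triterpene metabolism, had 12 tested genes, of which 0 were higher, 4 lower and 8 did not pass (median -0.13). The share that was lower is near the 32.4% of all tested genes. The 4 were CYP705A3, CYP705A12, CYP705A24 and CYP705A15, and the last of these (-0.17 ± 0.05, adjusted p = 0.0326) no longer passed without ambient array 1 or 3 or NO array 1 or 3, and leaving out each of the 6 arrays in turn gave changes between -0.20 and -0.14. CYP705A15 also did not pass with normexp (-0.14, adjusted p = 0.0972) or with the mean of its probes (-0.09, adjusted p = 0.178). Its other tested probe changed by -0.02. CYP72A had 1 gene higher, 2 lower and 5 that did not pass among 8 (median -0.01). In the CYP81 family 0 of 9 tested genes were higher and 4 lower (median -0.18), namely CYP81G1, CYP81F3, CYP81H1 (-0.45 ± 0.05) and CYP81D5.

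CYP89A had 3 higher, 1 lower and 2 not passing among 6. CYP89A9, which oxidises chlorophyll breakdown products during leaf senescence, read 3.05, 3.06 and 3.08 against 3.00, 2.85 and 2.95, and its change of -0.13 ± 0.05 did not pass (adjusted p = 0.0774). CYP71A had 3 higher, 1 lower and 5 not passing among 9 (median 0.21). CYP96A had 2 higher, 1 lower and 2 not passing among 5.

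Position in the genome gave a finer view of the subfamilies. In the RefSeq gene order (assembly TAIR10.1), 76 P450 genes lay in 14 rows of at least 3 members with no more than 1 other gene between neighbours, and 56 of these 76 were tested. The row from CYP71B16 to CYP71B24 on chromosome 3 had 8 tested genes, of which 6 were higher, 0 lower and 2 did not pass. Its changes differed greatly between direct neighbours. CYP71B21 changed by 0.37 ± 0.09, CYP71B22 next to it by 1.72 ± 0.05, and CYP71B23 on the other side by -0.09 ± 0.15, which did not pass (adjusted p = 0.638). CYP71B24 at the end of the row rose by 0.71 ± 0.09 at the probe used (0.39 with normexp) and by 1.49 at its other tested probe.

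**Figure D4:**
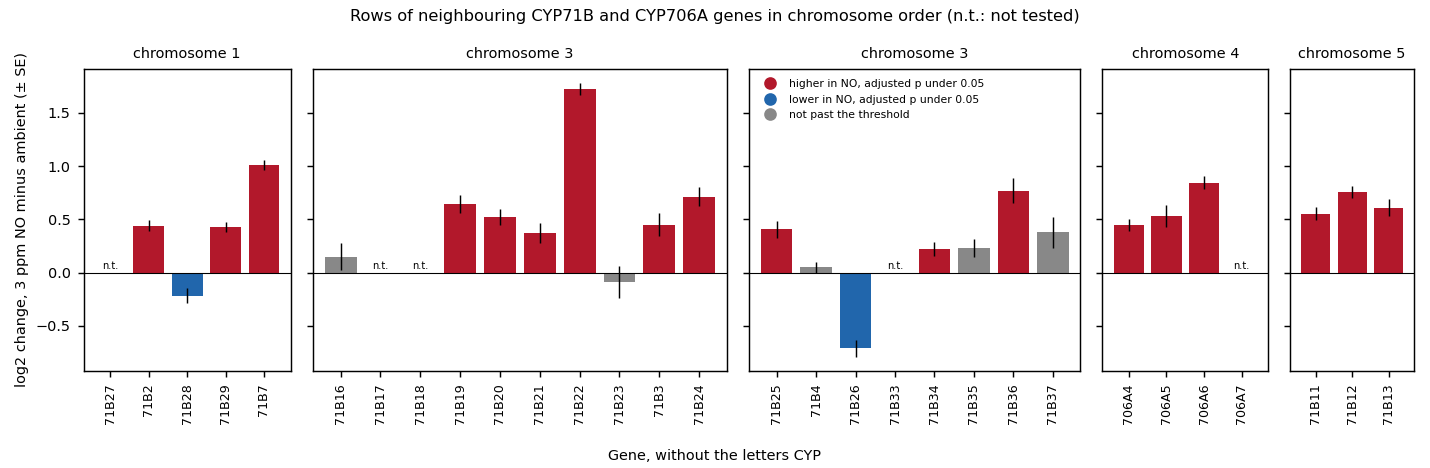
Log2 change (3 ppm NO minus ambient, ± SE, n = 3 arrays per group) of P450 genes in the 5 rows that hold CYP71B or CYP706A genes, in chromosome order; n.t. marks genes that were not tested. CYP71B22 (1.72) stands between CYP71B21 (0.37) and CYP71B23 (-0.09), and CYP71B26 (-0.71) is the lowest bar.

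The row plot also covers a second row on chromosome 3, from CYP71B25 to CYP71B37, with 7 tested genes: 3 were higher, 1 lower (CYP71B26) and 3 did not pass. One of its rises, CYP71B34 (0.22 ± 0.07), did not pass without ambient array 1 or 2 or any 1 of the NO arrays, and leaving out each of the 6 arrays in turn gave changes between 0.18 and 0.28. On chromosome 1 CYP71B2 (0.44 ± 0.05), CYP71B29 (0.43 ± 0.05) and CYP71B7 (1.01 ± 0.05) were higher, while CYP71B28, which lies between the first of these and CYP71B29, was lower (-0.22 ± 0.07, adjusted p = 0.0352) and lost its call without any 1 ambient array or without NO array 2 or 3, and leaving out each of the 6 arrays in turn gave changes between -0.25 and -0.15. All 3 genes of the row CYP71B11 to CYP71B13 on chromosome 5 were higher (0.55, 0.76 and 0.61), as were the 3 tested genes of the row CYP706A4 to CYP706A7 on chromosome 4 (0.45, 0.53 and 0.84).

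At the brightest probe of each gene, none of the 5 tested genes from CYP705A18 to CYP705A23 passed in either direction, with changes between -0.11 and 0.07. Other probes of this row did pass in a fit over all tested probes. CYP705A19 changed by 0.07 ± 0.05 at the probe used and by -0.32 ± 0.08 at the other (adjusted p = 0.0146). CYP705A21 changed by 0.03 ± 0.07 at the probe used, by 0.64 ± 0.17 at another (adjusted p = 0.0163) and by -0.03 ± 0.06 at the remaining probe, and the mean of its probes passed (0.21, adjusted p = 0.0459). The row from CYP72A7 to CYP72A15 had 1 gene higher, 2 lower and 5 not passing, and the row from CYP81H1 to CYP81D8 had 0 higher, 2 lower and 2 not passing. Probe sequences were not used here, so whether signal is shared between close relatives was not tested.

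**Figure D5:**
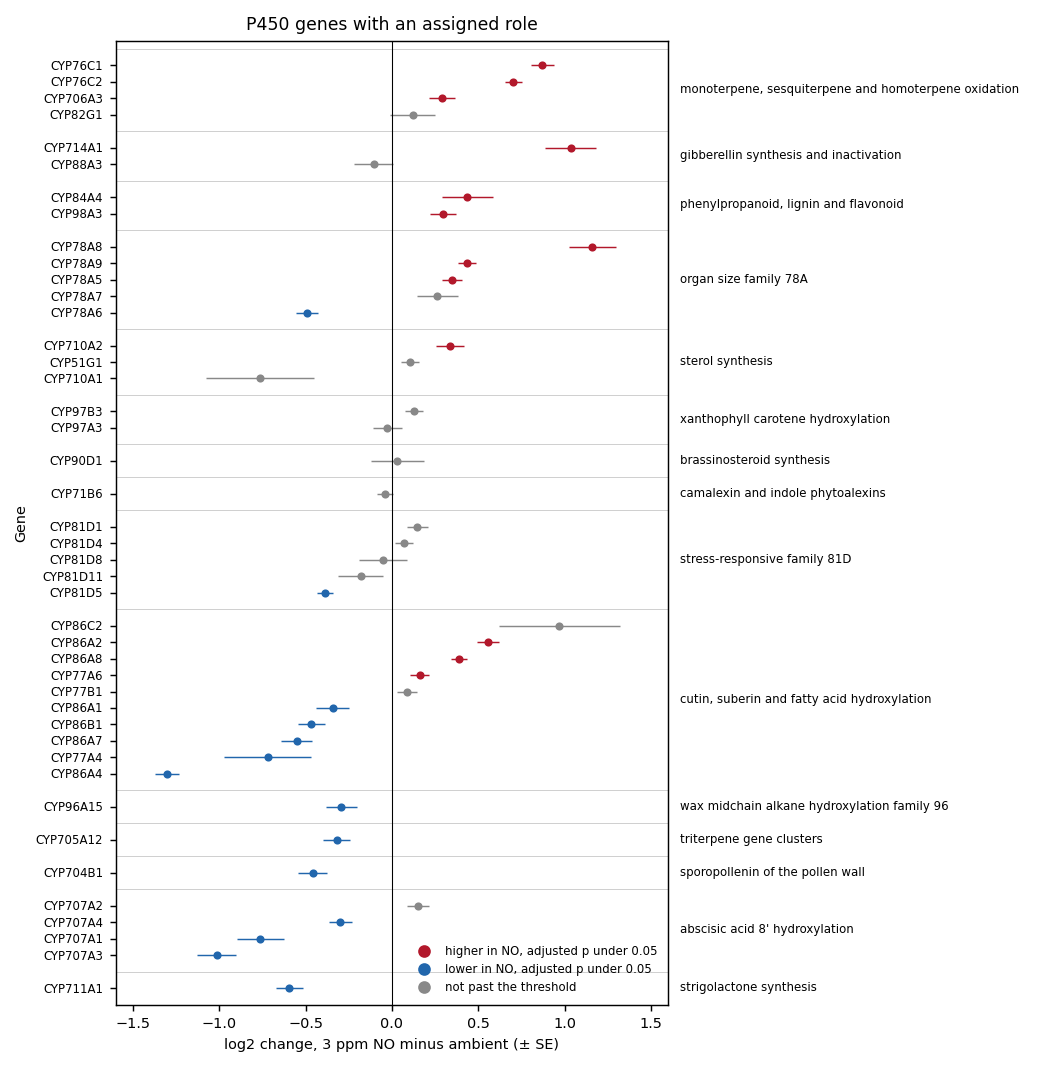
Log2 change (3 ppm NO minus ambient, ± SE, n = 3 arrays per group) of the tested P450 genes with an assigned role, grouped by role and ordered by the median of each group. Changes reach from -1.30 (CYP86A4, cutin group) to 1.16 (CYP78A8, organ size group). The lowest in the abscisic acid group is -1.02 and the highest in the terpene group 0.87. CYP76C2 is drawn at the value of its brighter probe only, on which the place of the terpene group in the order rests.

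The plot by role begins with hormone metabolism. The 4 abscisic acid 8'-hydroxylases of the CYP707A subfamily start the main route by which this stress hormone is broken down, and 3 of them were lower in NO, 0 higher and 1 did not pass. CYP707A1 read -3.08, -2.95 and -2.84 in ambient air and -4.01, -3.51 and -3.63 in NO and fell 1.70-fold (-0.76 ± 0.14, adjusted p = 0.00328), and its other tested probe fell by 0.54 on the log2 scale. CYP707A4 read -0.56, -0.69 and -0.64 against -1.00, -0.83 and -0.96 and fell 1.23-fold (-0.30 ± 0.07, adjusted p = 0.00793). In both the groups did not overlap. CYP707A2 read 1.31, 1.11 and 1.13 against 1.36, 1.34 and 1.31, and its change of 0.15 ± 0.06 did not pass (adjusted p = 0.0833). Of 6 tested genes of abscisic acid synthesis 0 were higher, 2 lower and 4 did not pass. Of the 2, NCED9 entered the test only through the ambient group, where it is bright, and was above background on 1 NO array. AAO3 changed by -0.15 ± 0.05 (adjusted p = 0.0489). Of the 6 guard cell genes counted above 5 were lower and 1, GC1, was higher. The signal summed over all 6 was higher in NO (11.2 to 11.6 in ambient air against 14.1 to 15.5). This sum includes GC1, the brightest of them, which read 2.40, 2.50 and 2.44 in ambient air and 3.40, 3.29 and 3.45 in NO. A link between the guard cell genes and the CYP707A changes was not tested.

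CYP711A1, the product of the MAX1 gene, acts late in the synthesis of strigolactones, hormones that restrain shoot branching. It read 2.59, 2.80 and 2.56 in ambient air and 2.00, 2.12 and 2.04 in NO, with no overlap, and fell 1.51-fold (-0.59 ± 0.08, adjusted p = 0.000764). Its other tested probe fell by 0.51 on the log2 scale. Of the gibberellin genes, CYP714A1 was given above, and CYP88A3, an ent-kaurenoic acid oxidase of the synthesis route, read -0.22, -0.20 and -0.13 against -0.14, -0.55 and -0.18 and did not pass (-0.11 ± 0.11, adjusted p = 0.452). CYP90D1, a brassinosteroid C-23 hydroxylase, read -0.71, -0.75 and -0.76 against -0.47, -0.56 and -1.09. Its NO arrays lay on both sides of the ambient arrays, and the change of 0.03 ± 0.16 did not pass (adjusted p = 0.873). Of 8 other genes of brassinosteroid synthesis and signalling 3 were higher, 3 lower and 2 did not pass. These 8 leave out P450 genes listed under other symbols. Of those, CPD (CYP90A1) was higher (0.41 ± 0.05, adjusted p = 0.000543). DWF4 (CYP90B1) was lower (-0.56 ± 0.06, adjusted p = 0.000285), and ROT3, BR6OX1, BR6OX2 and BAS1 did not pass. Both cytokinin trans-hydroxylases, CYP735A1 and CYP735A2, were above background on 1 NO array each and were not tested.

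P450 enzymes of the cuticle and its inner counterpart suberin moved in both directions. Of 10 tested genes of cutin, suberin and fatty acid hydroxylation, 3 were higher, 5 lower and 2 did not pass (median -0.13). CYP77A4, 1 of the 5, was tested only through the group in which it is bright. CYP86A2, which is needed for normal leaf cutin and is also known as ATT1, read 2.74, 2.64 and 2.75 against 3.24, 3.20 and 3.36 and rose 1.47-fold (0.56 ± 0.06, adjusted p = 0.000423). CYP86A8, known as LACERATA and required for epidermal integrity, read -1.85, -1.80 and -1.82 against -1.45, -1.46 and -1.40 and rose 1.31-fold (0.39 ± 0.05, adjusted p = 0.000568), or by 0.22 on the log2 scale with normexp. These rises stand opposite to the fall of CYP86A4 within the same subfamily, where 2 of 5 genes were higher and 3 lower.

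Both tested suberin hydroxylases were lower. CYP86A1 read -1.32, -1.14 and -1.35 against -1.55, -1.78 and -1.50 (-0.34 ± 0.09, adjusted p = 0.0182), and this call was lost without ambient array 2, at a change of -0.26, and with normexp, at -0.23 (adjusted p = 0.102). CYP86B1, which acts on very long chains, read -2.88, -2.92 and -3.02 against -3.50, -3.45 and -3.26 (-0.47 ± 0.08, adjusted p = 0.00246). In neither gene did the groups overlap.

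The other genes of this group were less certain. CYP77A4 (-0.72 ± 0.25, adjusted p = 0.045) passed although its groups overlapped. It was above background on 2 of 3 NO arrays. It lost its call without any 1 ambient array or without NO array 2 or 3, and leaving out each of the 6 arrays in turn gave changes between -1.01 and -0.49; with normexp the change was -0.29. CYP77A6, a mid-chain hydroxylase of flower cutin, passed at 0.16 ± 0.06 (adjusted p = 0.044) but kept its call under 4 of 17 alternatives; it lost it without any 1 ambient array or without NO array 2 or 3, and leaving out each of the 6 arrays in turn gave changes between 0.13 and 0.20. CYP86C2 read -5.04, -5.04 and -5.01 against -3.47, -3.76 and -4.94. Its NO arrays were spread over more than 1 log2 unit, and the change of 0.97 ± 0.35 just missed the threshold (adjusted p = 0.0505).

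Among genes that act beside these enzymes in cutin and wax formation, 8 of 15 tested were higher, 1 lower and 6 did not pass. GPAT8, an acyltransferase of leaf cutin, rose by 1.29 ± 0.06 (adjusted p = 1.29e-05), its partner GPAT4 by 0.54 ± 0.07 and the cuticle regulator MYB16 by 0.56 ± 0.06 on the log2 scale. CYP96A15, the mid-chain alkane hydroxylase that makes wax alcohols and ketones, read -0.39, -0.38 and -0.39 against -0.87, -0.67 and -0.51. It was lower by this measure (-0.29 ± 0.09, adjusted p = 0.0282), but no longer with normexp (-0.17, adjusted p = 0.103), without any 1 ambient array or without NO array 2, and leaving out each of the 6 arrays in turn gave changes between -0.38 and -0.20. CYP704B1, a fatty acid hydroxylase of the pollen wall polymer sporopollenin, read -0.87, -0.63 and -0.72 against -1.08, -1.27 and -1.25 and fell 1.37-fold (-0.46 ± 0.08, adjusted p = 0.00354). Its partner in that pathway, CYP703A2, was not above background on any array.

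Among P450 enzymes that oxidise volatile terpenes, 3 of 4 tested genes were higher, 0 lower and 1 did not pass; with the mean of the CYP76C2 probes, 2 were higher and 1 lower. CYP76C1 and CYP706A3 were described above. CYP82G1, which makes the homoterpenes released after herbivory, read -3.37, -3.36 and -3.39 against -2.94, -3.41 and -3.41. Only NO array 1 was high, and the change of 0.12 ± 0.13 did not pass (adjusted p = 0.455).

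CYP76C2 gave opposite results at its 2 tested probes. The brighter probe, used here, read 1.21, 1.21 and 1.20 in ambient air and 1.93, 1.86 and 1.94 in NO (0.70 ± 0.05, adjusted p = 4.68e-05). The dimmer probe read -3.50, -3.02 and -3.10 against -4.81, -4.94 and -5.48, a change of -1.87 ± 0.20, and the mean of both probes changed by -0.58 (adjusted p = 0.00375). The direction for this gene therefore depends on the probe, and the cause was not tested. Of the terpene synthase genes, which make the substrates of such enzymes, 3 were tested, and TPS04 and TPS10 entered the test only through the NO group, where they are bright. TPS10 read -5.21, -5.82 and -5.13 against -4.01, -3.95 and -3.85. The groups of the third, TPS03, overlapped, and its change of 0.53 ± 0.17 (adjusted p = 0.0374) did not pass with normexp, with the mean of its probes, or without ambient array 1 or 2 or NO array 1 or 3.

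P450 genes of triterpene gene clusters, which act mostly in roots, were largely below background: 1 of 9 was tested. This was CYP705A12, part of the marneral cluster, which read 0.26, 0.53 and 0.46 against 0.09, 0.05 and 0.14 and fell 1.25-fold (-0.32 ± 0.08, adjusted p = 0.0123), with a change of -0.21 with normexp. The 5 partner genes of these clusters were not above background on any array. Of 5 genes of indole phytoalexins 1 was tested, CYP71B6, which converts indole acetonitrile and read 2.94, 2.95 and 2.96 against 2.92, 2.87 and 2.94 (-0.04 ± 0.05, adjusted p = 0.507). CYP71A13, which makes that nitrile for camalexin, was above background on 1 NO array, and CYP71A12 and CYP82C2 on none. PAD3, the CYP71B15 enzyme that completes camalexin, is listed under that symbol and so lies outside the set. It read -2.81, -2.75 and -2.74 against -1.97, -2.14 and -1.97, with no overlap, and rose 1.67-fold (0.74 ± 0.06, adjusted p = 0.000141).

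CYP98A3, the 3'-hydroxylase of lignin and other phenylpropanoid synthesis, read 0.90, 1.01 and 0.94 in ambient air and 1.39, 1.19 and 1.15 in NO and rose 1.23-fold (0.30 ± 0.08, adjusted p = 0.0144). Its other tested probe rose by 0.61, and the mean of both by 0.45. C4H (CYP73A5) and FAH1 (CYP84A1), listed under those symbols and so outside the set, were both lower. C4H changed by -0.48 ± 0.09 (adjusted p = 0.00388) and FAH1 by -0.27 ± 0.09 (adjusted p = 0.0398), with no overlap in either gene. CYP84A4, which takes part in arabidopyrone synthesis, read -4.54, -4.04 and -4.03 against -3.90, -3.75 and -3.65. It passed at 0.44 ± 0.15 (adjusted p = 0.0413) and kept its call under 9 of 17 alternatives (adjusted p 0.0141 to 0.288). The call was lost without NO array 2 or 3, where the lowest change was 0.27, and with normexp, where the change was 0.12. Quantile scaling (0.32, adjusted p = 0.0854), median scaling, cyclic loess and a fit without the brightness filter also removed it.

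Of 3 tested sterol genes 1 was higher, 0 lower and 2 did not pass. CYP51G1, the sterol 14-demethylase, read 3.15, 3.11 and 3.04 against 3.15, 3.22 and 3.25 and did not pass (0.10 ± 0.05, adjusted p = 0.14). CYP710A2, a sterol C-22 desaturase, read -1.29, -1.38 and -1.22 against -1.10, -0.85 and -0.93 and rose 1.26-fold (0.34 ± 0.08, adjusted p = 0.0109). Its relative CYP710A1 changed by -0.77 ± 0.31 with overlapping groups and did not pass (adjusted p = 0.0745).

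CYP97A3, a carotene ring hydroxylase, read 1.47, 1.67 and 1.78 against 1.63, 1.57 and 1.64 (-0.03 ± 0.08, adjusted p = 0.793). CYP97B3 changed by 0.13 ± 0.05 (adjusted p = 0.0778). Neither passed. Of 8 other carotenoid genes 2 were higher, 2 lower and 4 did not pass, with the largest change in BCH1, a carotene hydroxylase that is not a P450 (-0.76 ± 0.07, adjusted p = 0.000215).

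In the CYP78A subfamily, whose members promote the growth of leaves, flowers and seeds, 3 of 5 tested genes were higher, 1 lower and 1 did not pass (median 0.35). CYP78A5, known as KLUH and active at the margin of the shoot meristem, read -1.29, -1.33 and -1.31 against -0.93, -0.91 and -1.05 and rose 1.27-fold (0.35 ± 0.06, adjusted p = 0.00198). CYP78A9 read 2.87, 2.89 and 2.88 against 3.31, 3.26 and 3.37 and rose 1.35-fold (0.43 ± 0.05, adjusted p = 0.000443). CYP78A6, which acts with CYP78A9 on seed size, went the other way: it read 0.18, 0.10 and 0.14 against -0.39, -0.25 and -0.42 and fell 1.41-fold (-0.49 ± 0.06, adjusted p = 0.000735). The groups did not overlap in any of these 3 genes. Of the 4 tested shoot meristem genes counted above 2 were higher and 2 did not pass. A link between them and the CYP78A changes was not tested.

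The CYP81D subfamily responds to xenobiotics and other stresses in many experiments. Here 0 of its 5 tested genes were higher, 1 was lower and 4 did not pass. CYP81D5 read 0.48, 0.48 and 0.54 against 0.12, 0.11 and 0.12 and fell 1.31-fold (-0.39 ± 0.05, adjusted p = 0.000509). CYP81D11, a common marker of xenobiotic exposure, read -3.62, -3.93 and -3.98 against -4.07, -4.19 and -3.81, with overlap, and did not pass (-0.18 ± 0.13, adjusted p = 0.269). CYP81D1 changed by 0.15 ± 0.06 and did not pass either (adjusted p = 0.0703).

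P450 enzymes need electrons from a reductase or, for some reactions, from cytochrome b5. The 2 NADPH-P450 reductase genes did not pass: ATR1 changed by 0.09 ± 0.05 (adjusted p = 0.126) and ATR2 by -0.13 ± 0.06 (adjusted p = 0.118). Of all 8 redox partner genes 3 were higher, 1 lower and 4 did not pass. CB5-C, a cytochrome b5 gene, read 2.13, 2.12 and 2.20 in ambient air and 3.28, 3.43 and 3.39 in NO, a rise of 2.33-fold (1.22 ± 0.06, adjusted p = 1.25e-05). The cytochrome b5 reductase CBR rose by 0.28 ± 0.07 and CB5-B by 0.26 ± 0.05 on the log2 scale, and CB5-A fell by 0.20 ± 0.06.

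Of 15 tested P450 genes that the table lists under other symbols, 4 were higher, 4 lower and 7 did not pass. TT7, the flavonoid 3'-hydroxylase CYP75B1, read 4.17, 4.20 and 4.22 in ambient air and 0.76, 0.80 and 0.82 in NO, a fall of 10.6-fold (-3.40 ± 0.05, adjusted p = 3.47e-07). That fall exceeds every change in the set of 126, whose largest was the rise of CYP71B22. HPL1, the hydroperoxide lyase CYP74B2, read 1.49, 1.36 and 1.58 against 2.51, 2.43 and 2.42 (0.98 ± 0.07, adjusted p = 6.17e-05). AOS, the allene oxide synthase at the start of jasmonate synthesis, rose by 0.78 ± 0.05 (adjusted p = 4.67e-05).

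The 77 P450 genes with a probe that were not tested were dim rather than unmeasured: 59 were not well above background on any array and 18 were above it on some arrays only. Of the 18, CYP709B2 was above background on 2 ambient arrays and on no NO array. Fewer P450 genes than other genes were bright enough, 62.1% of those with a probe against 73.3% of all genes with a probe. Whole subfamilies lacked a tested gene, among them CYP82C, with CYP82C4 of iron deficiency responses, and CYP702A. A difference between the groups was not tested for any of the 77 genes. Of the 126 tested genes, 120 were well above background on all 6 arrays.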

How the data were processed

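Cy3-labelled cRNA from rosette leaf RNA of 6 samples (3 in ambient air, 3 in 3 ppm NO, grouped by their titles) went onto Agilent arrays with 1 colour, per the labels. The deposited scanner files hold spot intensity on a linear scale, with a processed signal that Agilent Feature Extraction had background-corrected (version 10.7.3.1 per the file headers, 10.5 per the submitters' processing notes). The marks for background, saturation and outliers are those of the same software, per the file headers. Log2 values of the authors' own processing, deposited as a matrix, correlated with the values used here at r over 0.999 on every array, with all 43601 probe medians at 0 and column medians between -0.07 and 0.04; their exact scaling and centring are not given in the sources used here.

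Here log2 processed signals were set relative to each array's 75th percentile and averaged over the spots of a probe, without control and outlier spots (5 to 18 gene spots per array). A match to 1 of 25383 genes by transcript accession in the RefSeq table (assembly TAIR10.1) was found for 34285 of 43603 probes. Each gene was represented by its brightest probe and tested if every array of the ambient group or every array of the NO group had that probe well above background. 12 tested genes, none of them P450 genes, lacked a value on some array. The fit was limma 3.58.1 (lmFit and eBayes, R 4.3.3) over 18614 genes, two-sided, with Benjamini-Hochberg adjustment; it was tested on simulated data. The number of arrays limits the precision.

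The P450 genes, the role groups and the other gene lists were chosen with earlier results of these data known. Named P450 genes were the 12 largest rises and 12 largest falls among those that passed without overlap, up to 3 genes of the smallest adjusted p per role group, and every tested gene of role groups with at most 4; other genes were named up to 3 per list by adjusted p. Further genes (of subfamilies, rows, genes near the threshold, all redox partners, GC1, PAD3 and further P450 genes under other symbols, and untested genes) were named after their values were seen.

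The labels' title numbers did not pair the arrays: deviations of same-numbered arrays correlated at -0.08, -0.04 and 0.05, and in the source names the NO arrays carry the numbers 2 to 4. Alternatives were normexp background correction (offset 50, on the spot median signal, since a mean-signal column was not used here), other scalings, the authors' matrix, other probe and brightness rules, a trended robust fit, both numberings as a block, fold thresholds, and each array left out.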

Additional observations from a re-analysis of the deposited data

How the results depend on the processing

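The counts of P450 genes that passed stayed within 1.5 times of 47 higher and 29 lower under the alternative scalings, background correction, probe and brightness rules, fits and left-out arrays (38 to 53 higher, 23 to 34 lower). Requiring at least 1.5-fold left 18 higher and 9 lower P450 genes, and 2145 and 1359 of all genes; at least 2-fold left 6 and 2, and 927 and 372. The median log2 change of P450 genes, 0.124, stayed positive but moved by more than its spread between NO arrays (SD 0.0066): it was 0.0662 with normexp, 0.0758 with quantile scaling, 0.0759 with median scaling, 0.1033 with cyclic loess, 0.1367 with the authors' matrix, 0.1127 with the mean of probes, 0.1127 over genes well above background on all 6 arrays, and 0.0147 over all 203 genes with a probe; the last includes 77 genes too dim to test. Leaving out single arrays gave medians of 0.112 to 0.1357. No scaling moved the median of all genes by more than 0.05.

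With the replicate block by title number, 46 P450 genes were higher and 27 lower. With the replicate block by source-name number, which keeps only the 4 arrays that share numbers, the counts were 38 and 23, and 3667 of all genes were lower in place of 6023.

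Of the 76 passing P450 genes, 48 kept their call under every alternative that gave them a value (47 under all 17; CYP714A1 had no value where all 6 arrays had to be above background), 56 under all but the block fits, and 13 lost it without some array. The sign of 3 passing P450 genes changed under some alternative. CYP76C2 turned to -0.5844 (adjusted p = 0.00375, against a range from 5.62e-10 to 0.00835 over its alternatives) with the mean of its probes. With the same rule CYP72A14, -0.2272 here, was 0.339 (adjusted p = 0.102). CYP71B38, 0.5241 here, was -0.0128 (adjusted p = 0.987), so neither of these passed. The flower gene AP3, 0.4319 here, was -0.04 with normexp and no longer passed. The cause was not tested. With normexp the log2 changes of 22 passing P450 genes moved by over 1.5 times, all but CYP89A2 to a smaller size, and CYP96A8, CYP89A3 and CYP89A7 were among the 13 that no longer passed.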
